A study of Mus musculus with 10 samples.

Results

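Genes that make, take up, move and export cholesterol were followed in adipocytes and macrophages that shared medium across a membrane. The set holds 37 genes named by their roles, and every array probe whose platform gene symbol is one of those names was taken. Of the 37 genes, 32 had such a probe, with 64 of the 45281 probes, among 19057 genes on the array. Hmgcs1, Fdft1, Acat2, Nr1h2 and Soat1 had no probe under those symbols and were not analysed here. The other lists used beside the set, such as cholesterol ester hydrolysis, are described where they appear.

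Messenger RNA of mouse 3T3-L1 adipocytes and mouse RAW 264.7 macrophages was measured on 10 Illumina bead arrays. The bilayer adipocytes (3 arrays) were 3T3-L1 cells, taken to day 8 of a differentiation started with 0.5 mM IBMX, 1 µM dexamethasone and 10 µg/mL insulin, that then spent 24 h under macrophages on the other side of a polycarbonate membrane with 0.4 µm pores. The monolayer adipocytes (3 arrays) were differentiated likewise and grown alone. The bilayer macrophages (2 arrays) were RAW 264.7 cells that settled on the membrane for 18 h and then spent 24 h above the adipocytes, and the monolayer macrophages (2 arrays) were the same line grown alone. All cells were kept in DMEM with 10% fetal bovine serum, and cells of 5 dishes were pooled for a sample. The labels do not say whether monolayer dishes held an insert or the same volume of fresh medium, so exposure to the other cells cannot be told apart from such differences. The series record calls the samples biological replicates, but no label names separate cultures, so p-values here cover only the scatter among these pools, and that scatter may be technical. Both groups of cells are established lines, one a fibroblast line made to store fat and one a transformed macrophage line, and neither stands for primary tissue.

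Cells build cholesterol from acetyl-CoA through mevalonate and isoprenoids to squalene, and from squalene through lanosterol and a run of sterol intermediates. The transcription factor SREBP-2 (Srebf2) drives these enzymes and the uptake of lipoproteins when sterol in the endoplasmic reticulum is low, while SCAP carries it to the Golgi and the INSIG proteins hold it back when sterol is plentiful. Liver X receptors, activated by oxysterols, turn on exporters and lipid carriers such as ABCA1, ABCG1 and APOE. Adipocytes keep a large pool of unesterified cholesterol at the surface of their fat droplets, and macrophages take up lipoprotein cholesterol and must export or store it.

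The values are deposited intensities, background-subtracted and normalized, on a linear scale on which values below 0 occur. The medians of the 10 arrays lay between 5.08 and 5.1, and 99% of the values below 0 were smaller in size than 10.9, which served as the noise bound. The number of arrays limits the precision. The 11 adipocyte markers on the array summed to between 113361 and 128217 in adipocyte samples and to between 1127 and 1199 in macrophage samples, where 2 or 3 of them exceeded the noise bound. The 13 macrophage markers summed to between -20.4 and 15.5 in adipocyte samples, with 0 to 2 above the noise bound, and to between 90920 and 97266 in macrophage samples. In bilayer adipocytes alone that sum ran from -12 to 6.72, so the markers of macrophages were at background in the adipocyte samples of both conditions. Adiponectin (Adipoq), which defines adipocytes, read 0.7 and 5.3 in bilayer macrophages, against 12.1 and 19 in monolayer macrophages, lower on both bilayer arrays and near or under the noise bound in all 4. In bilayer adipocytes 4 of the 11 adipocyte markers were lower on every array, or 36.4%, against 14.8% of all genes, with 0 called at an adjusted p under 0.05, and their part in the results was not tested. Arrays of the same group correlated at 0.988 to 0.991 across probes. The arrays came from 2 slides, which could not be tied to samples, so the part of the slide in any result was not tested. In these bulk samples, fewer cells of a type and less RNA per cell cannot be told apart.

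In adipocytes, 4 of the 31 tested members were higher in the bilayer and 0 were lower. The 4 were Sqle and Lss of the sterol pathway, the receptor gene Vldlr and the lysosomal transporter gene Npc1. A gene was called where limma's adjusted p was under 0.05, and 5.63% of all 11037 genes tested were called higher and 5.17% lower in this comparison, against 12.9% and 0% of the members. The median log2 difference, bilayer minus monolayer, was 0.063 over the members and -0.012 over all genes tested. Without adjustment, 9 members were higher and 2 lower at p under 0.05, where 11.8% and 12.8% of all genes were. In 8 members every bilayer array lay above every monolayer array and in 4 below, or 25.8% and 12.9%, against 13.9% and 14.8% of all genes tested.

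Sqle encodes squalene epoxidase, which makes the first oxygenated sterol precursor and is a rate-limiting step after mevalonate. Its intensity was 8414, 9577 and 8666 in bilayer adipocytes, against 4567, 4791 and 5752 in monolayer adipocytes. The 3 bilayer arrays all lay well above the highest monolayer array. The log2 difference was 0.82 ± 0.08 (SE), or 1.77-fold on the log2(intensity + 16) scale, with limma adjusted p = 1.89e-06. A second Sqle probe gave 0.77 ± 0.13, with adjusted p = 0.000692 over all probes.

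Lss encodes lanosterol synthase, which closes the squalene chain into the first sterol. It read 1279, 1549 and 1468 in bilayer adipocytes, against 955, 1255 and 1250 in monolayer adipocytes. The groups did not overlap, but the lowest bilayer array was close to the highest monolayer array. Lss differed by 0.32 ± 0.10 on the log2 scale with limma adjusted p = 0.0477. The call was lost in 9 of 13 alternatives, and without monolayer replicate 1, the lowest array, the difference was 0.19 with adjusted p = 0.242. A second, dimmer Lss probe gave -0.22 ± 0.26.

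The remaining 13 synthesis members tested were not called in adipocytes, and their log2 differences had both signs. Of all 15 synthesis members, 8 were above 0 and 7 below. Mevalonate kinase (Mvk), an early step, read 46.1, 61.1 and 44.2 in bilayer adipocytes, against 80.1, 78.1 and 71 in monolayer adipocytes, and is singled out here after its values were seen. Every bilayer array lay below every monolayer array, with a log2 difference of -0.48 ± 0.17 and limma adjusted p = 0.0754. The demethylase gene Cyp51 (0.19, adjusted p = 0.0998), the isomerase gene Idi1 (0.30, adjusted p = 0.172) and Hsd17b7 (0.14, adjusted p = 0.179) did not overlap in the upward direction. Farnesyl diphosphate synthase (Fdps, -0.08), Msmo1 (-0.01), Ebp (-0.09), Sc5d (-0.17), Tm7sf2 (0.08), Pmvk (0.14) and Mvd (0.06) had adjusted p between 0.36 and 0.953. A second, dimmer Fdps probe read 194, 241 and 186 in bilayer adipocytes, against 183, 166 and 118 in monolayer adipocytes, for 0.39 ± 0.14 with adjusted p = 0.103 over all probes, of the other sign. Dhcr7, the last reductase of the pathway, read 677, 651 and 616 in bilayer adipocytes, against 706, 697 and 704 in monolayer adipocytes, lower on every array (-0.11, adjusted p = 0.435). The groups of Nsdhl overlapped (-0.24, adjusted p = 0.175).

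None of the 4 regulators was called in adipocytes. Srebf2 (0.12), Scap (0.06), Insig1 (0.07) and Insig2 (0.22) had adjusted p between 0.108 and 0.781. The brightest Insig1 probe thus stood near 0, and another probe of that gene gave -0.29 ± 0.11 with adjusted p = 0.114 over all probes.

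Among the uptake and transport members, Vldlr, the receptor for very low density lipoprotein, read 4484, 5204 and 4471 in bilayer adipocytes, against 3621, 3639 and 3607 in monolayer adipocytes. All 3 bilayer arrays stood above the tightly grouped monolayer arrays. Vldlr differed by 0.38 ± 0.11 on the log2 scale with limma adjusted p = 0.0322, and it was lost in 9 of 13 alternatives, including the removal of any one adipocyte array, where adjusted p ran from 0.0541 to 0.159. A second Vldlr probe gave 0.39 ± 0.08 with adjusted p = 0.00487 over all probes, and the other 3 probes tested were positive but not called.

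Npc1 encodes the membrane protein that carries cholesterol out of lysosomes. It read 1451, 1586 and 1437 in bilayer adipocytes, against 1087, 1091 and 1074 in monolayer adipocytes. The groups were far apart relative to their spread, with SDs of 82.5 and 9.02. The log2 difference was 0.45 ± 0.06 with limma adjusted p = 0.000124, and the call held in all 13 alternatives. The probes of Npc1 differed in sign. A dimmer probe read 299, 252 and 250 in bilayer adipocytes, against 207, 163 and 214 in monolayer adipocytes, for a log2 difference of 0.43 ± 0.12 with adjusted p = 0.0238 over all probes. Another read 575, 544 and 600 in bilayer adipocytes, against 645, 609 and 631 in monolayer adipocytes, which is lower on every bilayer array, with a log2 difference of -0.13 ± 0.08 and adjusted p = 0.353. Which transcripts these probes detect was not tested.

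The lysosomal partner of NPC1, Npc2, had a log2 difference of 0.20 (adjusted p = 0.103), the lipoprotein receptor gene Scarb1 of 0.15 and the sterol carrier gene Stard4 of -0.06, none called. Mylip, whose product degrades lipoprotein receptors, was not above the noise bound on any array. Of the efflux members, none of 7 was called in adipocytes, and the log2 differences ran from -0.38 for Abca1 to 0.22 for Pltp. Abca1 exceeded the noise bound on 1 bilayer and 2 monolayer adipocyte arrays, so its exporter message was barely measured. Abcg1, which exports cholesterol to high density lipoprotein, read 40, 49.7 and 55.8 in bilayer adipocytes, against 40.3, 55.2 and 49 in monolayer adipocytes, and the groups overlapped.

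**Figure D1:**
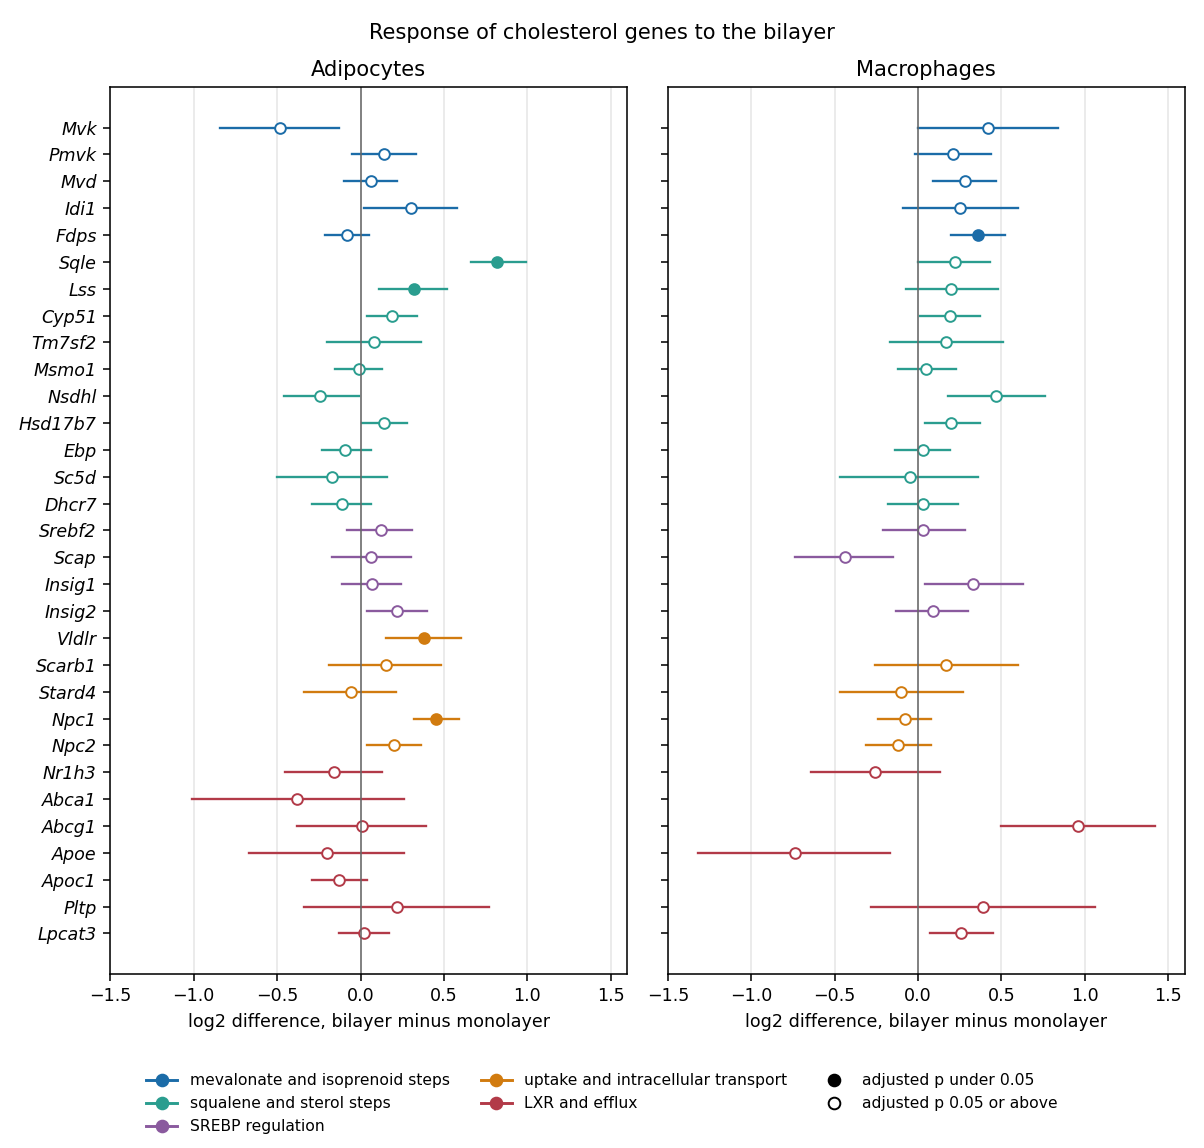
Log2 difference, bilayer minus monolayer, of each tested member in adipocytes (left) and macrophages (right), with 95% confidence intervals from limma, coloured by role and filled where adjusted p was under 0.05. In adipocytes Sqle, Lss, Vldlr and Npc1 are filled, and in macrophages Fdps is the filled point while 14 of 15 synthesis members lie right of 0.

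In macrophages, 1 of 28 tested members was called, Fdps, which was higher in the bilayer. Of all 10326 genes tested, 0.494% were called higher and 0.174% lower, against 3.57% and 0% of the members. At an unadjusted p under 0.05, 9 members were higher and 2 lower, against 5.84% and 5.05% of all genes. In 4 members both bilayer arrays lay below both monolayer arrays, or 14.3%, against 21.2% of all genes. In 10 of 15 synthesis members, both bilayer arrays lay above both monolayer arrays, or 66.7%, against 22.4% of all genes tested. The median log2 difference of the 15 was 0.204, against 0.003 over all genes tested. These shares describe the list, and no test of the list was made.

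Fdps makes farnesyl diphosphate, from which squalene, dolichol, ubiquinone and protein prenyl groups derive. It read 9906 and 9914 in bilayer macrophages, against 7940 and 7522 in monolayer macrophages. The bilayer arrays were nearly equal and both above the monolayer arrays. Fdps differed by 0.36 ± 0.08 on the log2 scale, or 1.28-fold, with limma adjusted p = 0.0493. The call was lost in 9 of 11 alternatives, including the removal of any one macrophage array, where adjusted p ran from 0.17 to 0.364. A second, dimmer Fdps probe gave 0.24 ± 0.18.

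Along the mevalonate steps, 5 of 5 members had both bilayer arrays above both monolayer arrays in macrophages, against 22.4% of all genes tested. Mvk read 65.4 and 87.8 in bilayer macrophages, against 53.8 and 51.7 in monolayer macrophages (log2 difference 0.42, adjusted p = 0.462). Mvd, the decarboxylase gene of that stretch, read 614 and 623 in bilayer macrophages, against 491 and 523 in monolayer macrophages (0.28, adjusted p = 0.246). Pmvk (0.21) and Idi1 (0.25) had adjusted p of 0.518 and 0.631. Each of these is a value that did not pass the test.

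Of the 10 sterol steps, 5 had both bilayer arrays above both monolayer arrays in macrophages, against the same 22.4% of all genes. Nsdhl, a dehydrogenase that helps remove the extra methyl groups of lanosterol, read 402 and 409 in bilayer macrophages, against 311 and 266 in monolayer macrophages. The log2 difference was 0.47 ± 0.14 with limma adjusted p = 0.188, and its 4 probes gave 0.32 to 0.52. Sqle read 4296 and 4314 in bilayer macrophages, against 3901 and 3515 in monolayer macrophages (0.22, adjusted p = 0.459). Lss (0.20), Cyp51 (0.19) and Hsd17b7 (0.20) were the others without overlap, with adjusted p between 0.337 and 0.626. Msmo1 (0.05), Ebp (0.03), Dhcr7 (0.03), Tm7sf2 (0.17) and Sc5d (-0.05) overlapped between the groups.

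None of the 4 regulators was called in macrophages, and their signs differed. Scap read 233 and 222 in bilayer macrophages, against 270 and 368 in monolayer macrophages, for a log2 difference of -0.44 ± 0.14 with adjusted p = 0.222. Insig1, a target of SREBP-2 as well as its brake, gave 0.19 to 0.39 over its 3 probes, and the probe that represented it gave 0.33 with adjusted p = 0.39. Srebf2 (0.03) and Insig2 (0.09) had adjusted p of 0.968 and 0.847. A second Insig2 probe read 551 and 646 in bilayer macrophages, against 467 and 460 in monolayer macrophages. It gave 0.35 ± 0.10 with adjusted p = 0.187 over all probes.

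Of the 4 uptake and transport members tested in macrophages, none was called. Npc1 read 1610 and 1575 in bilayer macrophages, against 1635 and 1728 in monolayer macrophages, for a log2 difference of -0.08 ± 0.07 and adjusted p = 0.791. Scarb1 (0.17), Stard4 (-0.10) and Npc2 (-0.12) had adjusted p between 0.737 and 0.922. Vldlr did not exceed the noise bound on any macrophage array.

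The widest differences among macrophage efflux members were those of Abcg1 and Apoe, singled out here after their values were seen. Abcg1 read 80.1 and 110 in bilayer macrophages, against 44.1 and 37.1 in monolayer macrophages. Both bilayer arrays stood above both monolayer arrays, with a log2 difference of 0.96 ± 0.21, or 1.95-fold, and limma adjusted p = 0.0696. Abcg1 was uncalled in 9 of 11 alternatives, and without 1 macrophage array the adjusted p ran from 0.163 to 0.383. It was called with a pseudocount of 64 (0.60, adjusted p = 0.0296) and with the macrophage arrays alone in the fit (adjusted p = 0.0197). Apoe, the lipoprotein carrier, read 14.5 and 5.9 in bilayer macrophages, against 35 and 20.8 in monolayer macrophages, close to the noise bound (-0.74 ± 0.27, adjusted p = 0.315). Lpcat3, a phospholipid acyltransferase gene under liver X receptor control, had 1421 and 1287 in bilayer macrophages, against 1162 and 1088 in monolayer macrophages (0.26, adjusted p = 0.271). Nr1h3 (-0.26) and Pltp (0.39) overlapped between the groups, and Abca1 and Apoc1 were not above the noise bound on any macrophage array.

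**Figure D2:**
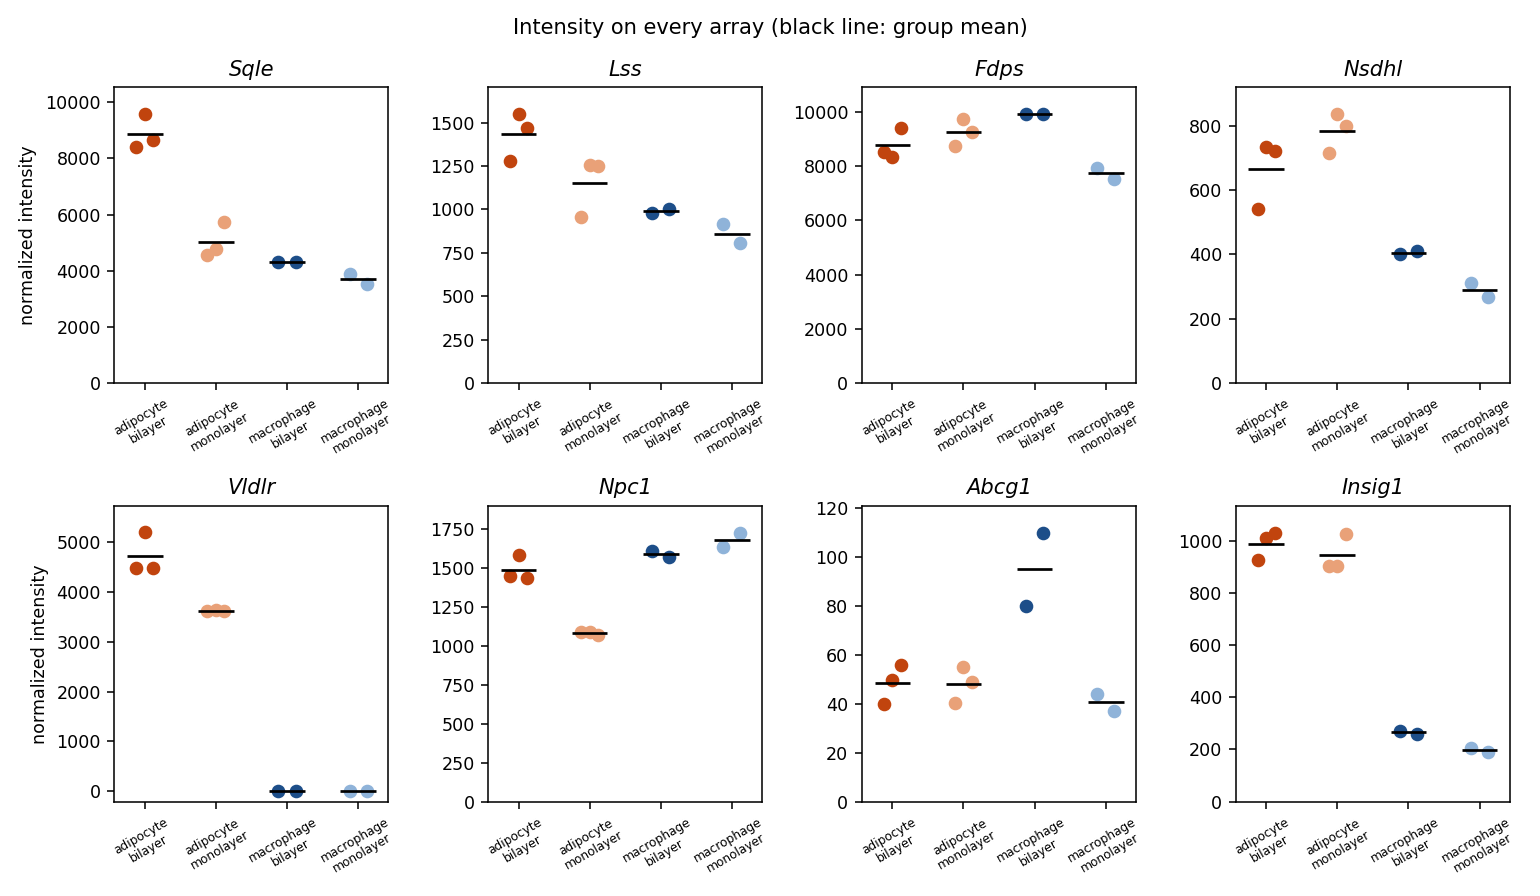
Normalized intensity on every array for 8 members, with 1 point an array (3 in each adipocyte group, 2 in each macrophage group), a black line at the group mean and a linear axis. Sqle, Lss, Vldlr and Npc1 are higher on all bilayer than on all monolayer adipocyte arrays. Sqle, Lss, Fdps, Nsdhl, Abcg1 and Insig1 are higher on both bilayer than on both monolayer macrophage arrays. Insig1 is shown by its probe with the highest mean over both lines.

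The adipocyte and macrophage responses differed for 4 of 31 tested members, by the interaction term of the same fit. Sqle and Npc1 had a more positive response in adipocytes, and Fdps and Nsdhl a more negative one. Of all 12324 genes tested, 1.51% were called with a more positive adipocyte response and 1.05% with a more negative one, against 6.45% each of the members. The adipocyte response minus the macrophage response was 0.53 ± 0.10 for Npc1 (limma adjusted p = 0.0106) and 0.61 ± 0.13 for Sqle (adjusted p = 0.0247). It was -0.44 ± 0.10 for Fdps (adjusted p = 0.0289) and -0.71 ± 0.17 for Nsdhl (adjusted p = 0.047). Without the intensity trend, or with the mean over all probes of a gene, 0 members were called, with adjusted p of 0.0866 to 0.169 and of 0.0544 to 0.618 for these 4.

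Log2 differences of Nsdhl had opposite signs in the cell lines on all 4 of its probes. In adipocytes it read 542, 735 and 721 in the bilayer, against 714, 836 and 798 in monolayer, with a log2 difference of -0.24 ± 0.11 (adjusted p = 0.175). Without bilayer replicate 1, the lowest array, that difference was -0.10 (adjusted p = 0.572). The interaction estimates of its 4 probes lay between -0.71 and -0.61, and their adjusted p over all probes between 0.0497 and 0.231. Fdps read 8534, 8346 and 9398 in bilayer adipocytes, against 8728, 9720 and 9271 in monolayer adipocytes, and these overlapped. Its second probe gave an interaction of 0.15 ± 0.23, of the other sign and not called. The dimmer Npc1 probes gave 0.43 ± 0.18, -0.08 ± 0.12 and -0.09 ± 0.45, so their signs differed, and none was called over all probes. A second Sqle probe gave 0.56 ± 0.22, also not called. Mvk (-0.90, adjusted p = 0.0735) and Abcg1 (-0.95, adjusted p = 0.0853) had larger interaction estimates than those called, but did not pass the test.

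These interaction calls did not all hold when 1 array was left out. The estimates then ran from 0.49 to 0.57 for Npc1, from 0.53 to 0.70 for Sqle, from -0.49 to -0.40 for Fdps and from -0.82 to -0.57 for Nsdhl. Without 1 array at a time, Npc1 lost its interaction call in 3 of 10 cases, all of them macrophage arrays, with adjusted p up to 0.0603. Sqle lost it in 7 of 10 cases, with adjusted p up to 0.12. Fdps and Nsdhl each lost it in 8 of 10 cases, with adjusted p up to 0.138 and 0.207.

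**Figure D3:**
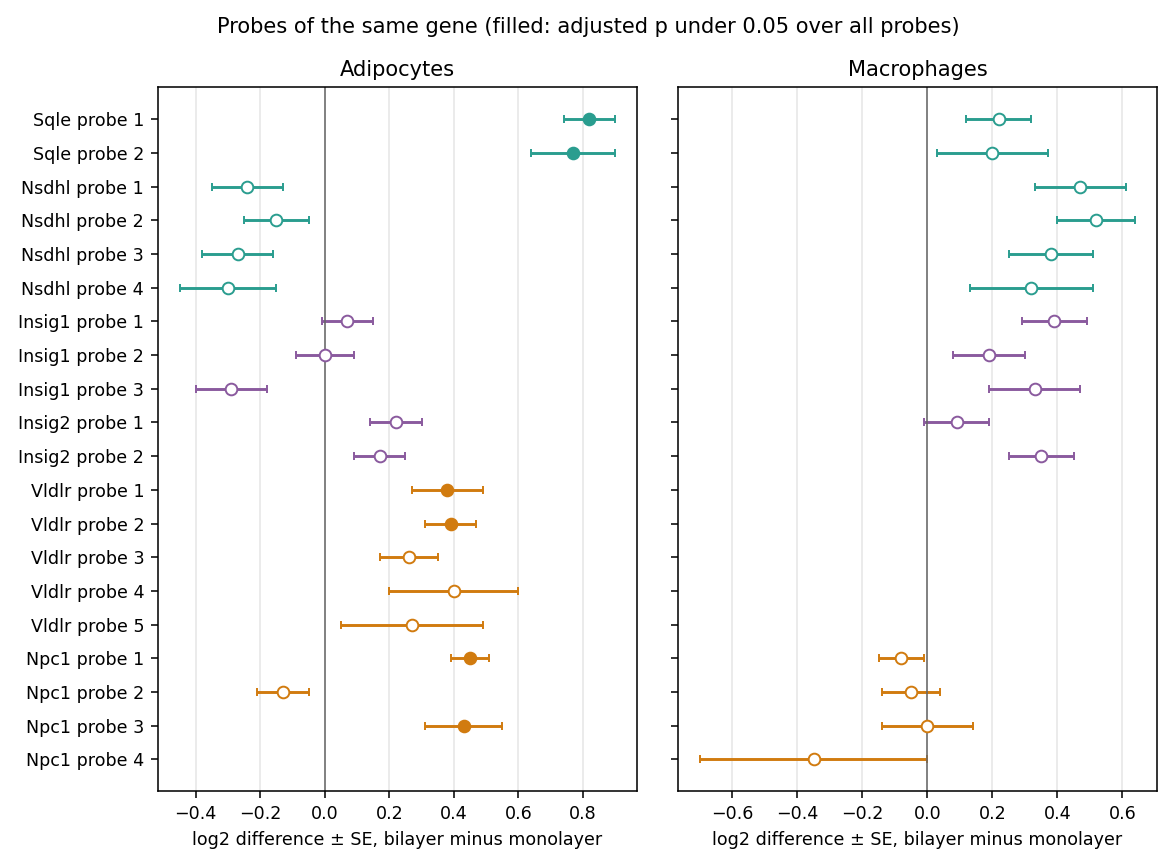
Log2 difference, bilayer minus monolayer, with its SE for every tested probe of 6 members in adipocytes (left) and macrophages (right), filled where adjusted p was under 0.05 over all probes. Both Sqle probes and 2 Vldlr probes are filled on the adipocyte side, 1 Npc1 probe there lies left of 0 at -0.13, and all 4 Nsdhl probes lie left of 0 in adipocytes and right of 0 in macrophages.

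Promoter sequences were taken from a RefSeq table of build GRCm38.p6. Of the 6 members called in either line or in the difference of the responses, those of Lss, Nsdhl and Vldlr are shown. No sequence was used for Sqle, Fdps or Npc1, and for Npc1 this does not mean that the table lacks an entry. The 250 bases before the transcription start, 5′ to 3′ on the plus strand, are shown so that the NF-Y box can be seen, a motif bound by a factor that works beside SREBP. Capitals mark CCAAT on either strand, so ATTGG is the box on the minus strand.
Lss, chr10:76531355-76531604: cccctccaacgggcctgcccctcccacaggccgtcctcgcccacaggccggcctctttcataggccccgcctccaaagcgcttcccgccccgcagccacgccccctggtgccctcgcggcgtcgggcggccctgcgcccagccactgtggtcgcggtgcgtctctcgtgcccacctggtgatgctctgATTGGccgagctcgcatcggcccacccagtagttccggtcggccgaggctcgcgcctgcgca
Nsdhl, chrX:72918271-72918520: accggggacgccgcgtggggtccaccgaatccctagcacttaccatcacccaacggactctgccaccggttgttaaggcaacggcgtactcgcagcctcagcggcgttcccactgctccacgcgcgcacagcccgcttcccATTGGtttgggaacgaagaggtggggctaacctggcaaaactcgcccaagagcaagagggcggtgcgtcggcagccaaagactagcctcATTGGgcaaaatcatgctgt
Vldlr, chr19:27216234-27216483: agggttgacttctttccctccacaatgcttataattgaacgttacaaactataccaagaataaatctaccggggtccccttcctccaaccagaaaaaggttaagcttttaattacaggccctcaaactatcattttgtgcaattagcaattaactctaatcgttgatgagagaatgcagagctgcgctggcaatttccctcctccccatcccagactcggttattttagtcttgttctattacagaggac
The Lss stretch held 1 box, which began 62 bases before the start, and the Nsdhl stretch held 2, at 109 and 20 bases. The Vldlr stretch, before the more upstream of its 2 listed starts, held none, while the stretch before the other start, not printed, held the box. Over the 29 members searched, 23 of 39 such stretches held CCAAT on either strand, or 59.0%. Of all 32851 stretches of that length searched, 33.8% held it. A sterol regulatory element spelled TCACNCCAC, searched on both strands, was found in 1 member stretch, that of Hmgcs1, and in 1.05% of all stretches. These matches are descriptions of letters, and no binding was measured.

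Between the lines, cholesterol genes were mostly higher in adipocytes. In monolayer, 23 of 31 tested members were higher and 2 lower in adipocytes than in macrophages, or 74.2% and 6.45%, against 33% and 32.8% of all 12324 genes tested. The 23 include Vldlr, Apoc1 and Abca1, which exceeded the noise bound on no macrophage array and so entered the test only through adipocyte arrays. Abca1 did so at readings of 12.7 in bilayer and of 16.7 and 11.2 in monolayer adipocytes, just above the bound. Among synthesis members 14 of 15 were higher, and Idi1 (0.01, adjusted p = 0.959) was the exception. A dimmer Hsd17b7 probe gave the other sign in monolayer, -0.70 ± 0.28 (adjusted p = 0.0411 over all probes), against 0.23 ± 0.07 on the brightest one. The median log2 difference, adipocytes minus macrophages, was 0.679 over synthesis members and -0.017 over all genes tested. In bilayer, 21 members were higher and 4 lower in adipocytes, where 33.3% and 33% of all genes were called. The 21 include Vldlr and Apoc1, which here too entered the test only through adipocyte arrays.

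The largest differences between the lines came from members that macrophages did not express above noise. Apoc1, an apolipoprotein gene, read 10925, 11090 and 10906 in monolayer adipocytes, against 2.14 and -3.39 in monolayer macrophages. It was at least 409-fold higher in adipocytes, counting macrophages at the noise bound on the log2(intensity + 16) scale, with limma adjusted p = 7.99e-19. Vldlr, with the adipocyte values above, read -0.0436 and 3.2 in monolayer macrophages and was at least 135-fold higher in adipocytes (adjusted p = 2.5e-16). The macrophage samples thus gave only a bound for both genes.

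Nr1h3, which encodes liver X receptor alpha, read 1366, 1382 and 1441 in monolayer adipocytes, against 11.7 and 23.4 in monolayer macrophages. The log2 difference was 5.42 ± 0.16 with limma adjusted p = 2.32e-13, and in macrophages the readings lay just above the noise bound. Msmo1, a sterol methyl oxidase gene, read 5613, 6224 and 5801 in monolayer adipocytes, against 615 and 573 in monolayer macrophages (3.27 ± 0.08, adjusted p = 1.37e-14). It was the synthesis member with the widest gap between the lines. Lpcat3 (2.26 ± 0.08, adjusted p = 1.87e-12) and Insig1 (2.15 ± 0.09, adjusted p = 9.69e-12) followed, with mean intensities of 5441 and 944 in monolayer adipocytes, against 1125 and 200 in monolayer macrophages. Another Insig1 probe was dimmer in adipocytes but brighter in macrophages, with means of 514 and 326 in monolayer. On it the gap was narrower in monolayer, 0.64 ± 0.12 (adjusted p = 0.000331 over all probes). In bilayer it gave 0.02 ± 0.12 (adjusted p = 0.911 over all probes), against 1.83 ± 0.09 on the first probe.

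Srebf2 and Npc1 were the members lower in monolayer adipocytes. Srebf2 read 502, 381 and 410 in monolayer adipocytes, against 724 and 723 in monolayer macrophages, for a log2 difference of -0.73 ± 0.10 (limma adjusted p = 1.42e-05). A second Srebf2 probe gave -0.64 ± 0.12 (adjusted p = 0.000186 over all probes), so both were lower in the line in which 14 of 15 synthesis members were higher. Npc1 differed by -0.63 ± 0.07 in monolayer (adjusted p = 8.95e-07) on its brightest probe. Its probes disagreed between the lines, since the dimmer probe that followed the bilayer rise gave -1.05 ± 0.13 (adjusted p = 3.77e-06 over all probes) and the probe that did not gave 0.54 ± 0.08 (adjusted p = 4.55e-05). In bilayer the difference on the brightest probe was -0.09 ± 0.07 (adjusted p = 0.245), with 1451, 1586 and 1437 in bilayer adipocytes, against 1610 and 1575 in bilayer macrophages, and the groups overlapped.

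In bilayer, the members lower in adipocytes were Abcg1 (-0.78 ± 0.19, adjusted p = 0.00224), Srebf2 (-0.65 ± 0.10, adjusted p = 4.99e-05), Mvk (-0.48 ± 0.17, adjusted p = 0.0259) and Fdps (-0.18 ± 0.07, adjusted p = 0.0304), by limma. The Fdps call was lost in 8 of 12 alternatives, and its second probe gave 0.09 ± 0.16. The Mvk call was lost in 5 of 12 alternatives, and without bilayer macrophage replicate 2 the difference was -0.30 (adjusted p = 0.236). In monolayer the same 2 enzymes, Mvk (0.42, adjusted p = 0.0449) and Fdps (0.26, adjusted p = 0.00386), were called higher in adipocytes, although over all probes Mvk had adjusted p = 0.0508 and the second Fdps probe gave -0.07 ± 0.16. Sqle differed by 1.04 ± 0.09 in bilayer and by 0.43 ± 0.09 in monolayer, called higher in adipocytes in both. The difference between those values is the interaction given above.

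**Figure D4:**
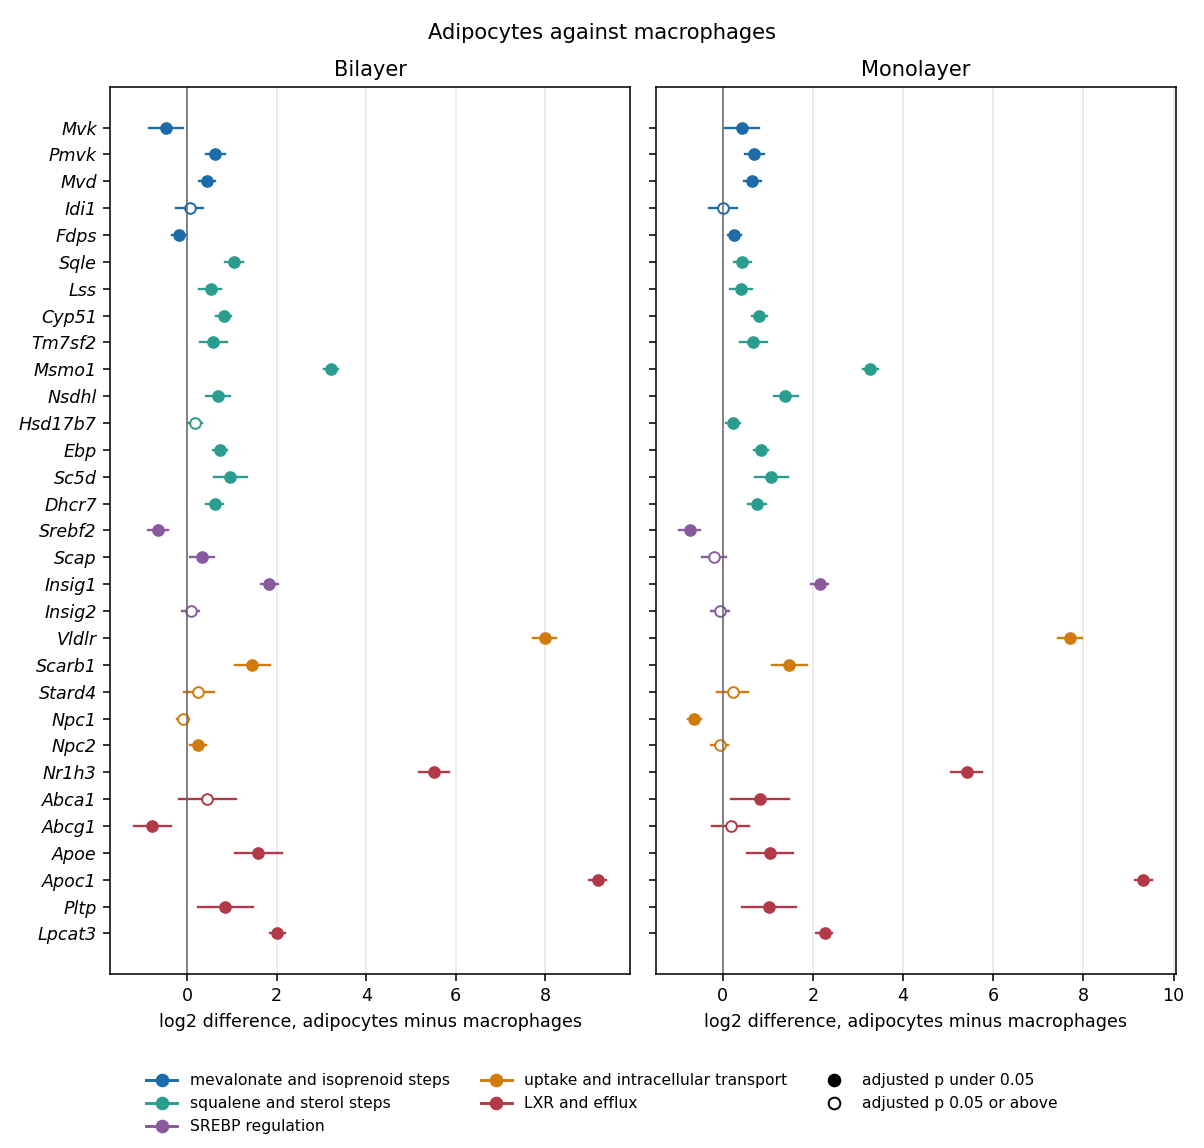
Log2 difference, adipocytes minus macrophages, of the 31 tested members in bilayer (left) and in monolayer (right), with 95% confidence intervals from limma, coloured by role and filled where adjusted p was under 0.05. Apoc1, Vldlr and Nr1h3 lie farthest right in both conditions, Srebf2 lies left of 0 in both, and Npc1 is filled and left of 0 in monolayer but not in bilayer.

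Genes of neighbouring pathways, in lists of 3 to 19 tested genes, gave further calls, to be read against the 5.63% of all genes called higher and 5.17% called lower in adipocytes, and the 0.494% and 0.174% in macrophages. In adipocytes, Erlin1 was higher in the bilayer by 0.37 ± 0.08 (limma adjusted p = 0.00615), as 1 of 10 genes of SREBP processing and sterol-sensing degradation. Acss2, which makes acetyl-CoA from acetate, was higher by 0.37 ± 0.09 (adjusted p = 0.00914) and Coq2 of ubiquinone synthesis was lower, at -0.29 ± 0.08 (adjusted p = 0.0351), of 11 genes around the isoprenoid branch. The Acss2 call was lost in 4 of 13 alternatives and the Coq2 call in 7 of 13. Cyp7b1, an oxysterol hydroxylase gene and 1 of 3 tested oxysterol enzymes, was higher by 0.58 ± 0.13 (adjusted p = 0.00916).

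The lysosomal acid lipase gene Lipa, whose product frees cholesterol from lipoprotein esters upstream of NPC1, was called in opposite directions, not under every alternative. It read 1692.3, 2212.3 and 1499.1 in bilayer adipocytes, against 1395.4, 1270.1 and 1239.2 in monolayer adipocytes (0.45 ± 0.10, limma adjusted p = 0.00787). It read 3112.3 and 3217.1 in bilayer macrophages, against 4818.9 and 5261.5 in monolayer macrophages (-0.67 ± 0.13, adjusted p = 0.0378). The macrophage call was lost in 6 of 11 alternatives, including the removal of any one macrophage array, where adjusted p ran from 0.17 to 0.345. The adipocyte call was lost in 2 of 13, and without bilayer replicate 2 that difference was 0.29 (adjusted p = 0.0325). The groups did not overlap in either line, and the interaction was 1.11 ± 0.17 (adjusted p = 0.00375). Of the list of sterol transfer, ester hydrolysis and storage, 3 of 19 tested genes were higher and 1 lower in adipocytes (15.8% and 5.26%, against 5.63% and 5.17% of all genes), and 1 of 17 was higher and 1 lower in macrophages (5.88% each, against 0.494% and 0.174%). The other genes among the 3 smallest p-values were Stard5, higher in bilayer adipocytes (0.49 ± 0.11, adjusted p = 0.00623), Osbpl1a, lower there (-0.65 ± 0.17, adjusted p = 0.0199), and Scp2, higher in bilayer macrophages (0.38 ± 0.07, adjusted p = 0.0306). The Osbpl1a call was lost in 9 of 13 alternatives, and the mean over its probes gave -0.11 (adjusted p = 0.774). Scp2 lost its call in 8 of 11, including the removal of any one macrophage array.

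Acss2 was the other macrophage call among these lists, at 0.56 ± 0.11 (limma adjusted p = 0.0301), higher in the bilayer as in adipocytes. It was lost in 7 of 11 alternatives, and without 1 macrophage array adjusted p ran from 0.17 to 0.233. Of 10 tested lipoprotein and scavenger receptors, Stab1 was called higher in bilayer adipocytes (0.28 ± 0.06, adjusted p = 0.00948), and 0 of 10 were called in macrophages. Cxcl16 read 6.3, 17.5 and 15.1 in bilayer adipocytes, against 1.2, 3 and 1 in monolayer adipocytes. It entered the adipocyte test only through 2 bilayer arrays just above the noise bound, so its call there is not counted. In bilayer macrophages it read 2541.7 and 2251.4, and a part of macrophage RNA in the adipocyte reading was not tested beyond the marker sums given above. Of 8 other genes linked to liver X receptors, the droplet coat gene Plin2 was higher in bilayer adipocytes by 0.59 ± 0.10 (adjusted p = 0.000499).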

How the data were processed

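Illumina bead arrays measured total RNA of 10 samples in 4 groups, named by the labels. The authors deposited 1 background-subtracted, normalized intensity per probe and sample, on a linear scale, with between 35.49% and 35.51% of values below 0. Their method is not given in the sources used here. The submitters' processing notes list GenomeStudio 2011.1 without its role. A further 20 value columns, named by slide and position, could not be tied to samples and were not used. Probes were named from the platform annotation, 34885 with 1 gene symbol, 18 with several and 10378 with none, the last 2 kinds left out. Intensities below 0 were set to 0 and log2(intensity + 16) was tested with limma 3.58.1 in R 4.3.3 (4 groups, eBayes with trend, Benjamini-Hochberg adjustment over all genes, two-sided, called at 0.05), so fold changes understate those of dim genes. A gene was tested where a probe exceeded 10.9 on at least 2 arrays of the lines compared, and was represented by its probe with the highest mean. Values after ± are SE for log2 differences. The script was tested on simulated data.

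Members and lists were chosen with earlier results of these data known. Named genes are the members called in a response or in the difference of the responses, the 6 largest line differences in each direction in monolayer, and at most 3 called genes of each other list and comparison; other members appear as steps of their pathway. Alternatives were pseudocounts of 8 and 64, no noise filter, no trend, the mean over probes, only the arrays compared, a replicate block and each array left out, and, added after seeing the data, each probe on its own. Figures were drawn with matplotlib 3.10.9.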

Additional observations from a re-analysis of the deposited data

Results flagged for a closer look

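For 4 members the adipocyte and macrophage responses to the bilayer differed by the interaction term of the fit (limma, adjusted p under 0.05). The adipocyte response minus the macrophage response was 0.61 for Sqle, from 0.82 in adipocytes and 0.22 in macrophages. It was 0.53 for Npc1, from 0.45 in adipocytes and -0.08 in macrophages. It was -0.44 for Fdps, from -0.08 in adipocytes and 0.36 in macrophages. It was -0.71 for Nsdhl, from -0.24 in adipocytes and 0.47 in macrophages.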

How the results depend on the processing

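With the alternatives recomputed per gene, which leave out each probe on its own, no result changed direction. Of 750 values for 59 single-gene results, 608 kept their side of the threshold, 137 lost the call and 5 gained one. Single probes did change sign for some of these results, as given below. These 59 were picked by their main result: members at unadjusted p under 0.05 in a response or the difference of the responses, the largest called line differences, and called genes of the other lists. Their steady signs thus follow in part from that choice, and the 608 include uncalled results that stayed uncalled. In adipocytes, members called were 4, and 2 with a pseudocount of 8, without the noise filter or without the trend. Over all genes, 1192 calls became 603 without the filter and 604 without the trend. Leaving out 1 array gave 2 to 4 members and 692 to 1153 genes. In macrophages, 1 member was called, and 0 with a pseudocount of 8, without the filter, without the trend or with the mean over probes, 2 with a pseudocount of 64 and 3 with only the arrays compared, where 69 calls over all genes became 155. Leaving out 1 array gave 0 to 1 members and 9 to 70 genes. For the difference of the responses, 4 members became 1 without the filter, 0 without the trend and 0 with the mean over probes, and 316 genes became 106 without the filter and 80 without the trend. Leaving out 1 array gave 0 to 4 members and 97 to 318 genes. Each probe tested on its own gave opposite signs in adipocytes for Npc1, Lss, Fdps, Insig1, Srebf2 and Lpcat3, and left the brightest Lss probe at adjusted p = 0.0528 in adipocytes and Fdps at 0.0654 in macrophages. The cause of these shifts was not tested. Deviations from the group mean correlated at 0.0107 to 0.0347 between same-numbered adipocyte samples, against -0.0264 to 0.0138 between the others. In macrophages the value was -0.000489, and with 2 arrays a group every pairing gives that size. These values cannot decide whether the numbers pair the samples. With the replicate block, 0 members were called in macrophages, and Fdps had limma adjusted p = 0.0704. Probes near the noise bound (Abca1, Apoe, Pltp, Cxcl16) give little more than a bound.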
